A study of Mus musculus with 3 samples.

Results

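The genes described here are 40 interferon-stimulated antiviral genes of the mouse, with the sensors, transcription factors and receptor chains of the type I interferon pathway. They were chosen by gene symbol, and all 40 were found among the 17121 genes of the deposited expression table. The list was made with earlier results of these data known. Counts of the 40 set beside those of all genes are therefore a description only. RNA was sequenced from CD8+ T cells of spleen and lymph node after 3 days of culture. The aged TRM sample came from wild-type mice of 18 months. These cells were given anti-CD3 and anti-CD28 (1 µg/ml) together with 20 ng/ml of IL-15 and 5 ng/ml of TGF-beta, cytokines meant to turn them towards a tissue-resident memory state (TRM). The young TRM sample had the same additions and came from wild-type mice of 6 weeks. The young TCR sample, from wild-type mice of the same young age, had the antibodies and no added cytokine, and is named after the T cell receptor (TCR) that anti-CD3 engages. The antibodies are thus common to all 3 samples, and an aged sample with antibodies alone was not analysed here. The number of mice behind a sample was not stated.

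Type I interferons bind a receptor of the chains IFNAR1 and IFNAR2, whose kinases activate STAT proteins, STAT2 among them. With IRF9 these form a complex that binds a DNA element, the interferon-stimulated response element (ISRE), before many antiviral genes. The induced proteins bind, cut or modify viral RNA, block entry or release of virus, or sense nucleic acid and so feed the pathway. Interferon gamma, the type II interferon, acts through another element, the gamma-activated site (GAS), and part of these genes answer to both kinds of interferon.

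Each group had 1 sample, so the spread between mice or cultures is unknown and no p-value is given. The table gave 40385477 reads to aged TRM, 36021887 to young TRM and 39915663 to young TCR. Each sample had 2 numbered columns of unstated meaning, which were treated as repeat measurements and summed. Between the columns of a sample the median member of at least 50 reads differed by 1.04-fold to 1.06-fold. Levels are given in CPM, reads scaled to a common library size by trimmed means (TMM). Rises and falls are named where 2 conditions held. The log2 ratio of CPM + 1 was at least 1 in size, and the 95% counting interval of the fold, which covers counting error only, excluded 1. The 7 T cell markers had a summed level of 3907 CPM in aged TRM, 4258 CPM in young TRM and 2831 CPM in young TCR, with Cd8a at 1632 CPM in aged TRM, 1822 in young TRM and 747 in young TCR. The list of CD4 T cells summed to 30.1 CPM in aged TRM, 54.2 in young TRM and 31.0 in young TCR over 4 genes. It was highest in young TRM through the regulatory T cell factor Foxp3 alone. Foxp3 had 3.71 CPM in aged TRM, 33.6 in young TRM and 1.95 in young TCR. Cd4 had 11.6 CPM in aged TRM, 12.4 in young TRM and 10.5 in young TCR. Zbtb7b, which fell in young TRM, had 14.3 CPM in aged TRM, 8.03 in young TRM and 18.1 in young TCR. The 8 myeloid markers summed to 26.2 CPM in aged TRM, 40.7 in young TRM and 25.9 in young TCR, of which Mpeg1 made 15.4 CPM in aged TRM, 28.7 in young TRM and 4.22 in young TCR. Of the same list Cd68 had 4.45 CPM in aged TRM, 5.25 in young TRM and 9.23 in young TCR. Itgax had 4.21 CPM in aged TRM, 3.55 in young TRM and 8.63 in young TCR. Csf1r stayed under 1 CPM in all 3 libraries, as did Siglech, a marker of the plasmacytoid dendritic cells known for making type I interferon. Ccr9, Tcf4 and Spib of the plasmacytoid list did not, with Ccr9 at 12.2 CPM in aged TRM, 21.7 in young TRM and 26.8 in young TCR. Nor did Bst2 of that list, which is also one of the 40 genes and made 38.3 of its 69.6 CPM in young TRM. The lists of B cells, NK and innate lymphoid cells, plasmacytoid dendritic cells and stroma were not highest in young TRM in sum. Single genes made most of some sums. Pecam1 made 70.7 of 72.4 CPM of the stroma list in young TRM. Eomes made 217 of 249 CPM of the NK and innate lymphoid list in young TCR, and had 93.5 CPM in young TRM. Of that list 5 of 6 markers rose in young TRM against young TCR, beside 4.18% of all genes tested. The other, Eomes, fell, as did 3.6% of all genes tested. The part of such cells in the results was not tested. In bulk RNA, fewer cells of a type and less RNA per cell cannot be told apart.

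The first comparison concerns the added cytokines in cells of young mice. Of the 40 genes 15 rose in young TRM against young TCR, while 4.18% of 11588 genes tested rose. None of the 40 fell, while 3.6% of all genes did. The highest log2 ratios of CPM + 1 were those of Isg20, a nuclease that degrades RNA, and Ifit3, which binds viral RNA in a complex with its relatives. Isg20 had 91.9 CPM in young TRM and 3.58 CPM in young TCR, and Ifit3 had 87.7 CPM in young TRM and 4.81 CPM in young TCR. The median log2 ratio of the 40 genes was 0.77, beside 0.02 over all genes tested. It was above 0 for 38 of them (36 to 38 over the alternatives), beside 51.9% of all genes tested. Ifih1 and Oasl1 were below 0 (-0.77 and -0.44), as were 48.1% of all genes tested. All 40 passed the filter of 1 CPM in at least 1 library of the pair, and 38 reached 1 CPM in both. Ifi44 and Ifit3b passed through young TRM alone, so their log2 ratios could only be above 0, and Ifit3b is counted among the 15. In all 4 pairings of the columns 12 of the 40 were more than 2-fold higher, beside 3.37% of all genes, and none was 2-fold lower, beside 2.85% of all genes.

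The second comparison concerns age under the same cytokines. Of the 40 genes 16 fell in aged TRM against young TRM, while 1.15% of 11575 genes tested fell. None of the 40 rose, while 2.25% of all genes did. Ifit3 had 12.1 CPM in aged TRM and 87.7 CPM in young TRM, and Rtp4, a chaperone of membrane receptors that interferon induces, had 1.50 CPM in aged TRM and 11.8 CPM in young TRM. All 40 log2 ratios were below 0, beside 50.8% of all genes tested, and none above 0, beside 49.2%. This held under 7 of 8 alternatives, and in the second columns alone Ifih1 was above 0. The median log2 ratio was -0.78, beside -0.01 over all genes tested. In all 4 pairings of the columns 15 of the 40 were more than 2-fold lower, beside 0.821% of all genes, and none was 2-fold higher, beside 1.59% of all genes. Here too all 40 passed the filter, 35 of them with 1 CPM in both libraries. Ifi44, Rsad2, Oas2, Oasl1 and Oasl2 passed through young TRM alone, so their log2 ratios could only be below 0. They are counted among the 40, and Oas2 among the 16. Both comparisons use the young TRM library, so their results are not independent of each other. The counts by role below stand beside shares over all genes of 4.18% risen in young TRM and 1.15% fallen in aged TRM.

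**Figure D1:**
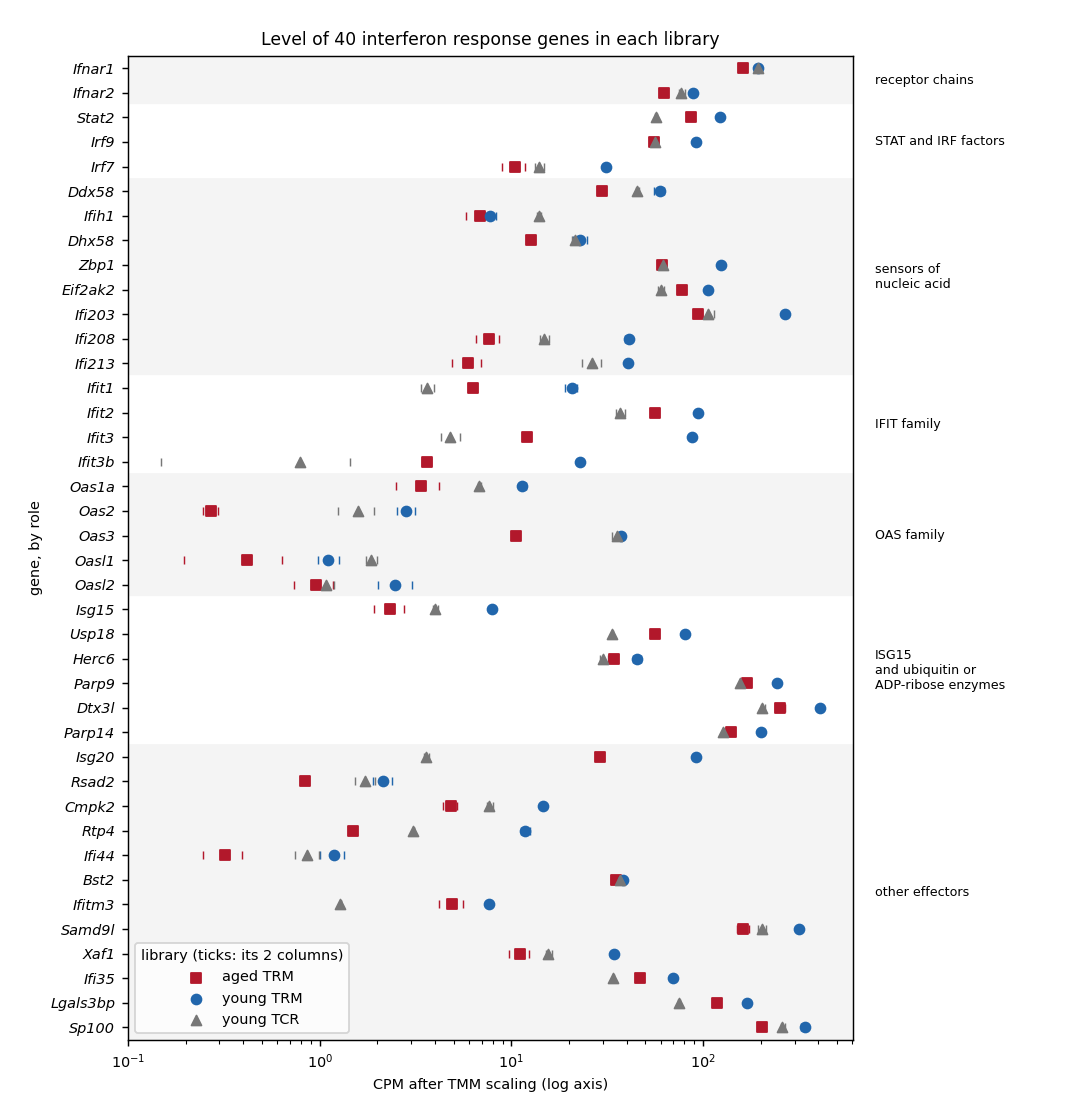
Level of each of the 40 genes in CPM (log axis) in aged TRM (squares), young TRM (circles) and young TCR (triangles), 1 library each, with ticks for the 2 columns of a library and shading by role. For 38 genes the circle lies to the right of the triangle (36 to 38 under other settings), and for all 40 it lies to the right of the square. Levels of different genes are not comparable here, since CPM is not divided by length.

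**Figure D2:**
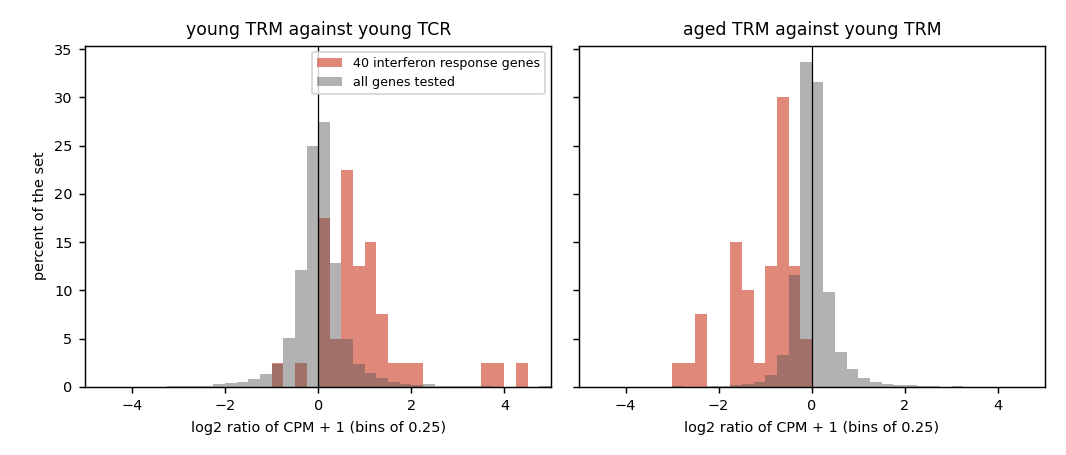
Share of genes in bins of the log2 ratio, for the 40 interferon response genes and for all genes tested (11588 on the left, 11575 on the right). The 40 genes lie mostly to the right of 0 for young TRM against young TCR (median 0.77) and wholly to the left of 0 for aged TRM against young TRM (median -0.78).

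Promoter windows of RefSeq on GRCm38.p6, from 250 bases before to 50 bases after a start site, were found for 33 of the 40 genes, in 39 windows. Those without a window were Zbp1, Dhx58, Oas2, Usp18, Parp9, Parp14 and Rtp4. The ISRE was searched on both strands as GAAA, any 2 bases and GAAA again. They were present in 16 of 39 windows (41.0%), 1 for each of 16 genes, beside 3.44% of all 32851 windows. The GAS letters TTCNNNGAA, where N is any base and which read the same on both strands, were in 9 of 39 windows (23.1%), beside 8.3% of all windows. Both patterns occurred together in 4 windows, and overlapped in 2 of these, those of Bst2 and Ifitm3. A match describes letters and is not a measured binding site. Start sites here are those of the windows, and an annotated gene can begin before them. The stretches printed below lie inside the annotated gene for Ifit3, Ifit3b and Ifi203, and partly inside it for Ifi208, Ifi213 and Oas1a. For 28 of the 39 windows the 20 bases after the start site occurred in a GENCODE M21 transcript of that gene. Among the genes that fell in aged TRM, 9 of 13 with a window held ISRE letters, as did 7 of the 20 other genes. Among those that rose in young TRM the counts were 7 of 13, and 9 of the 20 others.

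**Figure D3:**
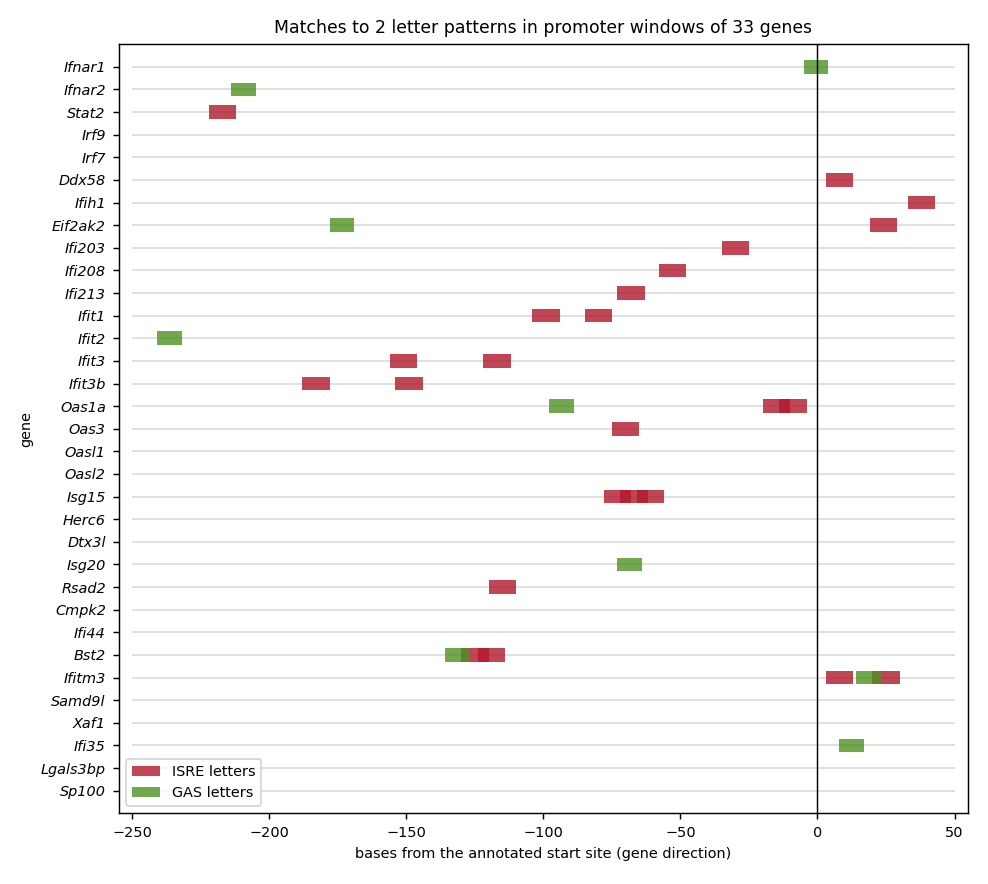
Position of matches to the ISRE letters (red) and the GAS letters (green) in the promoter windows of 33 of the genes, in bases from the start site of the window. Where a gene has more than 1 window, the matches of all its windows are drawn on 1 row. Matches of Ifit1, Ifit3 and Ifit3b lie in pairs, and those of Isg15, Oas1a and Bst2 overlap each other.

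Neither receptor chain rose or fell. Ifnar1 had 161 CPM in aged TRM, 194 CPM in young TRM and 194 CPM in young TCR. Ifnar2, the chain that binds interferon first, had 62.8 CPM in aged TRM, 89.1 in young TRM and 77.1 in young TCR. Their log2 ratios were 0.00 and 0.21 in young TRM against young TCR, and -0.26 and -0.50 in aged TRM against young TRM. Ifnar1 lay below 0 in the first of these under 3 alternatives (scaling by totals or by median ratios, and the deposited TPM) and in the second columns alone. Both chains lie on chromosome 16, Ifnar2 at 91372783 to 91405589 and Ifnar1 at 91485032 to 91510523 of GRCm38.p6.

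Of the 3 transcription factors, Stat2 and Irf7 rose in young TRM, and Irf7 fell in aged TRM. Stat2, a subunit of the interferon complex, had 86.2 CPM in aged TRM, 122 CPM in young TRM and 56.5 CPM in young TCR. It was 2.16-fold higher in young TRM than young TCR (interval 2.05 to 2.28). Irf9, the DNA-binding subunit of that complex, had 55.7 CPM in aged TRM, 91.6 in young TRM and 56.3 in young TCR, so that aged TRM and young TCR were nearly level (log2 ratio -0.02). Irf7, the factor that amplifies interferon production, had 10.4 CPM in aged TRM, 31.2 in young TRM and 14.0 in young TCR. Its 2 columns held 11.8 and 8.96 CPM in aged TRM, 29.9 and 32.2 CPM in young TRM, and 13.3 and 14.8 CPM in young TCR. Irf7 was 2.24-fold higher in young TRM than young TCR (2.02 to 2.48) and 3.00-fold lower in aged TRM than in young TRM (2.68 to 3.36). Its rise was not past the threshold with a pseudocount of 5 CPM (log2 ratio 0.93).

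Of the 8 sensors of nucleic acid 2 rose in young TRM and 4 fell in aged TRM. With age the lowest log2 ratios were those of the PYHIN genes Ifi203, Ifi208 and Ifi213, which encode interferon-inducible nuclear proteins. Ifi203 had 93.8 CPM in aged TRM, 266 CPM in young TRM and 106 CPM in young TCR. Ifi208 had 7.63 CPM in aged TRM, 41.0 in young TRM and 14.8 in young TCR, and was 5.37-fold lower in aged TRM than in young TRM (4.75 to 6.10). Ifi213 had 5.93 CPM in aged TRM, 40.6 in young TRM and 26.2 in young TCR, and was 6.84-fold lower in aged TRM (5.96 to 7.87). All 3 fell in aged TRM, and Ifi203 and Ifi208 rose in young TRM with log2 ratios of 1.33 and 1.41. Ifi213 had a log2 ratio of 0.61 there. All lie on chromosome 1, Ifi213 from 173566280, Ifi208 from 173673628 and Ifi203 from 173920400. Of the 50-base words of their longest coding transcripts, 25.9% for Ifi208 and 27.9% for Ifi213 occur in other genes, most in each other, and how reads of shared words were counted was not stated. Stretches before the start sites of their windows are shown because the 3 genes carry the same ISRE match, in capitals. They lie at chr1:173942493-173942552 (minus strand), chr1:173673582-173673641 (plus strand) and chr1:173599311-173599370 (minus strand), and the stretches of Ifi208 and Ifi213 are identical over 60 bases.
Ifi203: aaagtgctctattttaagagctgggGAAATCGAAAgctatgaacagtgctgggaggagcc
Ifi208: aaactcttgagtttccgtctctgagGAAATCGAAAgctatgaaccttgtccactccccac
Ifi213: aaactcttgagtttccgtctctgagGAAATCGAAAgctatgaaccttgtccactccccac

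The 3 RIG-I-like sensors of viral RNA passed in neither comparison. Ddx58, which encodes RIG-I, had 29.8 CPM in aged TRM, 59.4 CPM in young TRM and 45.3 CPM in young TCR. Ifih1, which encodes MDA5, had 6.89 CPM in aged TRM, 7.75 in young TRM and 13.9 in young TCR, and was thus highest in young TCR. Dhx58, which encodes their regulator LGP2, had 12.6 CPM in aged TRM, 22.7 in young TRM and 21.6 in young TCR. Ddx58 came close in aged TRM against young TRM with a log2 ratio of -0.97 and passed in the second columns alone (-1.06). Eif2ak2, which encodes the kinase PKR that halts translation on sensing RNA, had 77.8 CPM in aged TRM, 106 in young TRM and 60.1 in young TCR and passed in neither. Zbp1, a sensor of Z-form nucleic acid that can trigger cell death, had 60.7 CPM in aged TRM, 124 in young TRM and 62.0 in young TCR. It fell in aged TRM with a log2 ratio of -1.02, but not when libraries were scaled by totals (-0.98), with a pseudocount of 5 CPM (-0.97), with the deposited TPM (-0.92) or in the first columns alone (-0.96). In young TRM against young TCR its log2 ratio was 0.99, past the threshold with the deposited TPM (1.05) and in the second columns alone (1.0).

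The IFIT family, whose proteins bind foreign RNA and block its translation, was the only role in which every member rose in young TRM. Ifit3 had 12.1 CPM in aged TRM, 87.7 CPM in young TRM and 4.81 CPM in young TCR. Its columns held 11.9 and 12.1 CPM in aged TRM, 85.5 and 89.0 CPM in young TRM, and 4.29 and 5.40 CPM in young TCR. It was 18.2-fold higher in young TRM than young TCR (15.8 to 21.2) and 7.28-fold lower in aged TRM than in young TRM (6.61 to 8.02). Ifit3b, a close copy of Ifit3, had 3.64 CPM in aged TRM, 22.7 in young TRM and 0.789 in young TCR. Its young TCR columns held 29 and 3 reads, farther apart than the 2-fold threshold, so its fold of 28.8 in young TRM (20.2 to 42.4) is uncertain beyond counting error. Of the 50-base words of Ifit3 51.2% occur in Ifit3b, and of those of Ifit3b 44.5% in Ifit3, so how reads were divided between them is uncertain. Ifit1 had 6.30 CPM in aged TRM, 20.8 in young TRM and 3.63 in young TCR, 5.74-fold higher in young TRM than young TCR (4.80 to 6.90) and 3.30-fold lower in aged TRM than in young TRM (2.86 to 3.82). Ifit2 had 56.2 CPM in aged TRM, 94.1 in young TRM and 36.9 in young TCR, and rose in young TRM (log2 ratio 1.33) but did not pass the threshold in aged TRM (-0.73). Ifit2 had the most reads in young TRM and the smallest log2 ratio against young TCR, but reads are not divided by transcript length. In the deposited TPM of young TRM, which is, Ifit3 was highest (86.3), before Ifit2 (46.8), Ifit3b (22.4) and Ifit1 (15.4).

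The 4 IFIT genes lie together on chromosome 19, from Ifit2 at 34550550 to the end of Ifit1 at 34650009. In the windows of Ifit3, Ifit3b and Ifit1 a pair of ISRE matches on the opposite strand, in capitals, lay before the start site of the window. For Ifit3 and Ifit3b the pair lies inside the annotated gene. These stretches are shown because the 3 genes were among the 4 with the largest rise. They cover chr19:34583348-34583441, chr19:34607744-34607837 and chr19:34640760-34640838, all on the plus strand. The stretches of Ifit3 and Ifit3b are identical over 94 bases. No window of Ifit2 or Isg20 held the ISRE letters, and 1 window of each held GAS letters.
Ifit3: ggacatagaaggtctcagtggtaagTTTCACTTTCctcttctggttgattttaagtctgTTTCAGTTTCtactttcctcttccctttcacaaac
Ifit3b: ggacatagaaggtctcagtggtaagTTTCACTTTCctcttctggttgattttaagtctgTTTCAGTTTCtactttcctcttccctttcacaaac
Ifit1: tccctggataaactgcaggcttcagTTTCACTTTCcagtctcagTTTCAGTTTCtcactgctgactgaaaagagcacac

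The OAS family makes or resembles enzymes that sense double-stranded RNA and activate the nuclease RNase L. None of its 5 members passed the threshold in young TRM against young TCR, and 3 of the 5 fell in aged TRM. Oas3 had 10.6 CPM in aged TRM, 37.2 CPM in young TRM and 35.6 CPM in young TCR. The young libraries were thus close for Oas3 (log2 ratio 0.06, and below 0 in the second columns alone), and it was 3.52-fold lower in aged TRM than in young TRM (3.16 to 3.94). Oas1a had 3.37 CPM in aged TRM, 11.4 in young TRM and 6.78 in young TCR, and was 3.38-fold lower in aged TRM than in young TRM (2.78 to 4.13). Oas1a shares 57.6% of its 50-base words with Oas1g, which was listed at under 0.3 CPM in every library. Oas2 had 11 reads in aged TRM, 99 in young TRM and 64 in young TCR, a 10.4-fold lower level in aged TRM than in young TRM with a wide interval of 5.56 to 21.5. With a pseudocount of 5 CPM the calls of Oas1a (-0.97) and Oas2 (-0.57) were lost. The OAS-like genes Oasl1 and Oasl2 had at most 2.47 CPM in any library and passed in neither comparison, with log2 ratios of -0.57 and -0.82 in aged TRM. All 5 lie on chromosome 5, with Oas2, Oas3 and Oas1a in that order between 120730333 and 120907544. Stretches of Oas1a (chr5:120907526-120907570) and Oas3 (chr5:120777700-120777759), both on the minus strand, are shown because these are the members with most reads among those that fell. In Oas1a the capitals are a pair of overlapping matches, and in Oas3 a single match.
Oas1a: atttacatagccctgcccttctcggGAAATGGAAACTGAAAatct
Oas3: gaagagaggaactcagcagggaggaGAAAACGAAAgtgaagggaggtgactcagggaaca

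Of the 6 genes of ISG15 and of ubiquitin or ADP-ribose transfer, Usp18 rose in young TRM and Isg15 fell in aged TRM. Isg15, a ubiquitin-like modifier, had 95 reads in aged TRM, 280 reads in young TRM and 162 reads in young TCR. It was 3.40-fold lower in aged TRM than in young TRM (2.69 to 4.34), a call lost with a pseudocount of 5 CPM (-0.82). Usp18, which removes ISG15 and restrains the receptor, had 56.2 CPM in aged TRM, 80.2 in young TRM and 33.4 in young TCR, 2.40-fold higher in young TRM than young TCR (2.25 to 2.56). Herc6, the mouse ligase that attaches ISG15, had 34.4 CPM in aged TRM, 45.5 in young TRM and 30.1 in young TCR, and 23.8% of its 50-base words occur in other genes. Dtx3l, a ubiquitin ligase, and Parp9, its partner, lie side by side on chromosome 16. Dtx3l had 253 CPM in aged TRM, 406 in young TRM and 203 in young TCR. Parp9 had 170.1 CPM in aged TRM, 243 in young TRM and 156 in young TCR. Parp14, an ADP-ribosyltransferase in the same stretch of that chromosome, had 140.0 CPM in aged TRM, 201 in young TRM and 126 in young TCR. These 4 passed in neither comparison, with log2 ratios of 0.58 to 0.99 in young TRM against young TCR and of -0.39 to -0.68 in aged TRM against young TRM. Dtx3l passed the first in the first columns alone (1.02). The stretch before Isg15 (chr4:156200850-156200921, minus strand) is shown because it holds 3 overlapping ISRE matches in a row, more than any other window of the 33 genes.
Isg15: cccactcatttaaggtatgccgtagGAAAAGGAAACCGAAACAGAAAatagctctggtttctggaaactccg

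Among the 12 other effectors 6 rose in young TRM and 4 fell in aged TRM. Isg20 had 28.8 CPM in aged TRM, 91.9 CPM in young TRM and 3.58 CPM in young TCR. Its columns held 27.9 and 29.5 CPM in aged TRM, 88.6 and 94.2 CPM in young TRM, and 3.49 and 3.71 CPM in young TCR. It was 25.7-fold higher in young TRM than young TCR (21.8 to 30.6) and 3.19-fold lower in aged TRM than in young TRM (2.98 to 3.41). Rtp4 had 1.50 CPM in aged TRM, 11.8 in young TRM and 3.08 in young TCR, and its level in young TRM was 3.83-fold that in young TCR (3.13 to 4.72) and 7.87-fold lower in aged TRM than in young TRM (6.00 to 10.5). Xaf1, a pro-apoptotic protein, had 11.1 CPM in aged TRM, 34.2 in young TRM and 15.6 in young TCR and passed in both comparisons, with log2 ratios of 1.08 in young TRM against young TCR and -1.54 in aged TRM against young TRM. Cmpk2, a mitochondrial nucleotide kinase, had 4.82 CPM in aged TRM, 14.6 in young TRM and 7.67 in young TCR and fell in aged TRM only (-1.43). Its neighbour on chromosome 12, Rsad2, which encodes the antiviral enzyme viperin, had 0.836 CPM in aged TRM, 2.13 in young TRM and 1.73 in young TCR and passed in neither comparison.

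Other effectors rose in young TRM without passing the threshold in aged TRM. Ifitm3, which blocks fusion of virus with the cell membrane, had 4.90 CPM in aged TRM, 7.66 CPM in young TRM and 1.28 CPM in young TCR. Its log2 ratio was 1.92 in young TRM against young TCR and -0.56 in aged TRM against young TRM, the order kept for the pairs of ratios that follow. Lgals3bp, a secreted glycoprotein, had 118 CPM in aged TRM, 170.3 in young TRM and 74.7 in young TCR, with log2 ratios of 1.18 and -0.53. Ifi35, a partner of the interferon-induced protein NMI, had 47.1 CPM in aged TRM, 69.4 in young TRM and 33.9 in young TCR, with log2 ratios of 1.01 and -0.55. Its rise was lost when libraries were scaled by totals (0.96), with a pseudocount of 5 CPM (0.93) and in the first columns alone (0.98), and that of Xaf1 with that pseudocount (0.93). Whether the 2 comparisons differ in size for these genes was not tested. The rest passed in neither. Samd9l, a restriction factor, had 162 CPM in aged TRM, 315 in young TRM and 202 in young TCR, and with -0.95 in aged TRM passed only in the second columns alone (-1.05). Sp100, a nuclear body protein, had 202 CPM in aged TRM, 338 in young TRM and 259 in young TCR. Ifi44 had 13 reads in aged TRM, 42 in young TRM and 35 in young TCR.

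Bst2, which encodes tetherin that holds virus at the cell surface, stood out by its even level. It had 35.0 CPM in aged TRM, 38.3 CPM in young TRM and 37.0 CPM in young TCR, with log2 ratios of 0.05 in young TRM against young TCR and -0.12 in aged TRM against young TRM. The first of these was below 0 when libraries were scaled by totals. The stretch before its start site (chr8:71537562-71537627, minus strand) is shown because it holds 2 overlapping ISRE matches, in capitals, beside a level that barely differed.
Bst2: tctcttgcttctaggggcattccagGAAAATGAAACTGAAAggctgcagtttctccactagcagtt

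**Figure D4:**
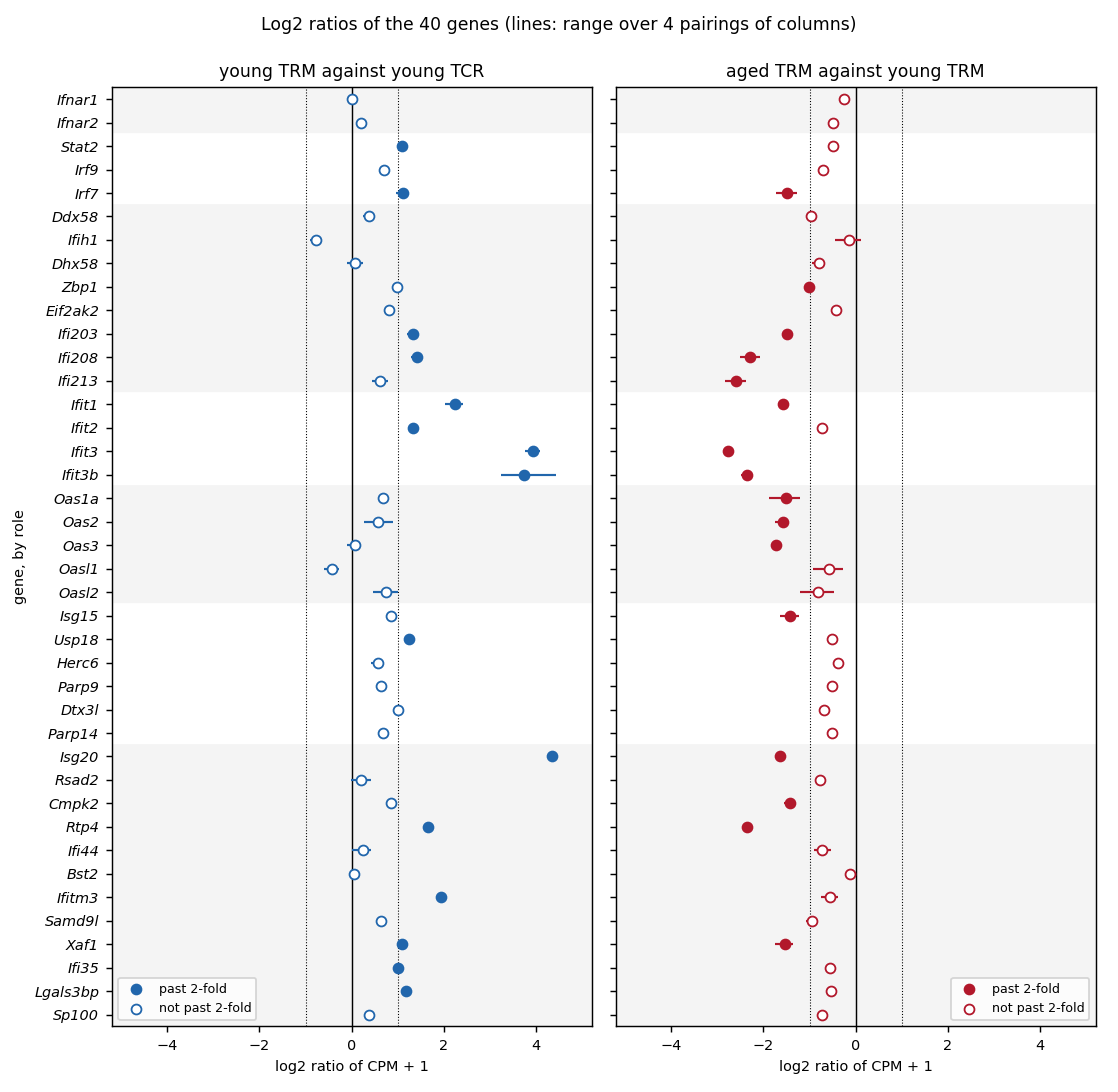
Log2 ratio of CPM + 1 for each gene in young TRM against young TCR (left) and aged TRM against young TRM (right), with filled points past 2-fold and lines for the range over the 4 pairings of the columns. On the left 15 points are filled, with Isg20 highest at 4.34. On the right 16 are filled, with Ifit3 lowest at -2.76.

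Aged TRM and young TCR differ in both age and cytokines, and their values are set side by side only. The 40 genes summed to 2039 CPM in aged TRM and 2034 CPM in young TCR, beside 3555 CPM in young TRM. Genes with many reads weigh most in such a sum. In the deposited TPM they summed to 1379 in aged TRM, 1270 in young TCR and 2393 in young TRM. Their median log2 ratio in aged TRM against young TCR was -0.22, beside 0.01 over all genes tested. Single genes were not equal. In 15 genes, among them all 4 IFIT genes, Isg20, Ifitm3, Usp18 and Stat2, the level was higher in aged TRM than in young TCR, beside 50.9% of 11688 genes tested. Isg20 was 8.06-fold higher (6.78 to 9.65), Ifit3 2.51-fold (2.12 to 2.97) and Ifitm3 3.82-fold (2.80 to 5.28). In the other 25 it was lower, beside 49.1% of all genes tested, among them all 5 OAS genes and the 3 PYHIN genes. Ifi44, counted among the 25, was under 1 CPM in both libraries. Ifit3b reached 1 CPM in aged TRM alone, and Rsad2, Oas2, Oasl1 and Oasl2 in young TCR alone, so the filter fixed their direction. Ifi213 was 4.42-fold lower in aged TRM than in young TCR (3.84 to 5.10), and Oas3 3.37-fold (3.02 to 3.76).

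Levels of different genes were compared in the deposited TPM, which is divided by transcript length. Sp100 was the highest of the 40 in every library, at 159 TPM in aged TRM, 250 TPM in young TRM and 196 TPM in young TCR. Zbp1 (175 TPM) and Isg20 (173 TPM) followed in young TRM, while Isg20 had 55.9 TPM in aged TRM and 6.84 TPM in young TCR. Parp9 was second in aged TRM (112 TPM) and in young TCR (101 TPM). The lowest were Oas2 in aged TRM (0.145 TPM) and Ifi44 in both young libraries (0.805 TPM in young TRM and 0.590 TPM in young TCR). At least 100 TPM were reached by 3 genes in aged TRM, 9 in young TRM and 2 in young TCR. The median gene had 14.3 TPM in aged TRM, 34.1 TPM in young TRM and 16.4 TPM in young TCR.

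The interferons themselves gave another picture. Of 20 interferon genes on the list 7 were in the table and 13 were not analysed here. Ifng, which encodes interferon gamma, had 478 CPM in aged TRM, 82.1 CPM in young TRM and 103 CPM in young TCR. It was thus 5.82-fold higher in aged TRM than in young TRM (5.59 to 6.05), where all 40 response genes were lower. None of the type I and III genes found in the table reached 1 CPM. Ifnb1, Ifne, Ifnl3 and most Ifna genes were among those not analysed, so nothing is said of their level. Ifnz had 9 reads in aged TRM, 0 in young TRM and 9 in young TCR, and its counting interval excluded 1 in both comparisons. Ifna4, Ifna13, Ifnab, Ifnk and Ifnl2 had at most 1 read in any library, so no difference could be detected in them at this depth.

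Of the genes that carry the signal, Irf1 and Ifngr2 rose in young TRM, beside 4.18% of all genes tested. Stat4 fell there, as did 3.6% of all genes tested. With so few genes, no result is read from these calls. Irf1, a transcription factor induced by interferon, had 427 CPM in aged TRM, 772 in young TRM and 313 in young TCR, with log2 ratios of 1.30 in young TRM against young TCR and -0.85 in aged TRM against young TRM. Ifngr2, a chain of the interferon gamma receptor, had 47.1 CPM in aged TRM, 90.5 in young TRM and 18.0 in young TCR. It was 5.04-fold higher in young TRM than young TCR (4.64 to 5.46). Stat4, the mediator of IL-12 signals, fell in young TRM, with 197 CPM in aged TRM, 137 in young TRM and 414 in young TCR. The receptor kinase genes Jak1 (532 CPM in aged TRM, 622 in young TRM and 537 in young TCR) and Tyk2 (92.6 CPM in aged TRM, 94.3 in young TRM and 90.6 in young TCR) passed in neither comparison. In aged TRM against young TRM none of the genes named here passed, while 2.25% of all genes tested rose and 1.15% fell.

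**Figure D5:**
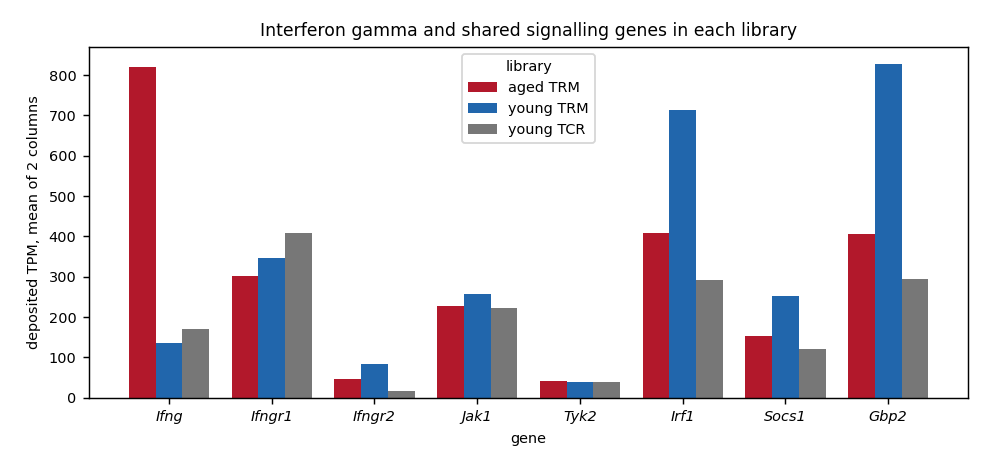
Deposited TPM of Ifng, receptor, kinase and feedback genes and the target Gbp2 in aged TRM, young TRM and young TCR, 1 library each, with no error bars since there are no replicates. Ifng is highest in aged TRM, whereas Irf1, Socs1 and Gbp2 are highest in young TRM.

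Other lists of the pathway were counted in the same way, with Usp18 and Isg15 the only genes shared with the 40. Among 41 further interferon-stimulated genes 37 were tested in each comparison. In young TRM against young TCR 9 rose and 2 fell, beside 4.18% and 3.6% of all genes. In aged TRM against young TRM 1 rose and 8 fell, beside 2.25% and 1.15% of all genes. Their median log2 ratios over all 41 were 0.56 and -0.51. Ifitm1, which encodes a relative of IFITM3, had 366 reads in aged TRM, 477 reads in young TRM and 25 reads in young TCR. Apol9b, a relative of apolipoprotein L, had 107 reads in aged TRM, 285 in young TRM and 2 in young TCR. Ifi206, a further PYHIN gene, had 18.8 CPM in aged TRM, 79.0 in young TRM and 31.5 in young TCR, rising in young TRM and falling in aged TRM. Epsti1 and Bst1 went the other way in young TRM, Epsti1 with 36.4 CPM in aged TRM, 58.8 in young TRM and 195 in young TCR and Bst1 with 7.99 CPM in aged TRM, 1.28 in young TRM and 15.9 in young TCR, and Bst1 was the one that rose in aged TRM.

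The 18 genes that lean to interferon gamma are mostly guanylate-binding proteins and immunity-related GTPases. Of 17 tested 9 rose in young TRM, beside 4.18% of all genes. In aged TRM 1, Gbp2, fell, beside 1.15% of all genes. Gbp2 had 491 CPM in aged TRM, 1031 CPM in young TRM and 365 CPM in young TCR. Cxcl10, a chemokine that attracts T cells, had 7.72 CPM in aged TRM, 14.4 in young TRM and 1.90 in young TCR, and the guanylate-binding protein gene Gbp6 had 465 CPM in aged TRM, 873 in young TRM and 196 in young TCR. Median log2 ratios over all 18 were 1.04 and -0.69, beside 0.77 and -0.78 for the 40 antiviral genes. Of the adaptors and kinases of nucleic acid sensing, Tlr7, a receptor for single-stranded RNA, rose in young TRM and fell in aged TRM, with 14.2 CPM in aged TRM, 35.7 in young TRM and 11.6 in young TCR. It was the only one to pass of 12 tested in the first comparison and of 11 in the second, beside the same shares of all genes. With so few genes tested, no result is read from a single call. Among 9 negative regulators Socs1, which blocks the kinases, and Usp18 rose in young TRM, and Isg15 fell in aged TRM. Usp18 and Isg15 belong to the 40 and are counted above, so Socs1 was the only further gene to pass. Socs1 had 91.6 CPM in aged TRM, 155 in young TRM and 73.9 in young TCR.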

How the data were processed

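RNA was measured in 3 samples, 1 for each of the groups aged TRM, young TRM and young TCR. Per the submitters' processing notes Bowtie and the assembly GRCm38 (mm10) were used, with the counting program and annotation not given in the sources used here. The table deposited by the authors holds estimated counts (not always whole) and TPM in 2 numbered columns per sample, and 24 further value columns were not used. Counts were rounded, summed over the columns and scaled by TMM factors (edgeR 4.0.16 in R 4.3.3; 1.01 for aged TRM, 0.978 for young TRM and 1.02 for young TCR). Ratios hold a pseudocount of 1 CPM and were computed in Python 3.11.15 for genes of at least 1 CPM in at least 1 library of a pair. Folds hold none. Their 95% Clopper-Pearson intervals rest on the split of reads between libraries, which are not independent molecules.

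The 40 genes, the lists and the choice of named genes were made with earlier results of these data known. Every one of the 40 is accounted for by role, with values for those that passed a threshold and reached 10 CPM and for the highest and lowest of a role, and up to 4 genes of each other list were to be named by size of ratio. Further genes (weaker members, markers, Jak1, Tyk2) were named after their values were seen. Sequences and positions are RefSeq's on GRCm38.p6, and transcripts GENCODE M21. Another gene of the pathway is not reported here. Alternatives were scaling by totals or by DESeq2 1.42.0 median ratios, a pseudocount of 5 CPM, a filter of 10 CPM or none, the deposited TPM, and either column alone.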

Additional observations from a re-analysis of the deposited data

How the results depend on the processing

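The counts of antiviral genes that rose in young TRM (15; 12 to 16 over 8 alternatives) and fell in aged TRM (16; 12 to 18) stayed within 1.5 times, and the counts in the opposite directions stayed at 0. The median of the 40 in aged TRM against young TRM was -0.67 with a pseudocount of 5 CPM, against -0.78. Over all genes that pseudocount gave 296 risen and 190 fallen in young TRM, against 484 and 417, and 87 risen and 62 fallen in aged TRM, against 260 and 133. With at least 10 CPM 234 fell in young TRM and 123 rose in aged TRM. A larger pseudocount shrinks ratios of weakly expressed genes, and the stricter filter tests fewer genes. For single antiviral genes, 603 of the recomputed values kept their side of the threshold, 12 lost it and 7 gained it, none of the called values reversed, and 18 were not tested. Among these 18 were Ifitm3, which rose in young TRM, and Oas2 and Isg15, which fell in aged TRM, all with at least 10 CPM required. No scaling moved the median of all genes by over 0.1. No paired analysis was possible because each group has 1 sample.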
